A study of Homo sapiens with 4 samples.

Results

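Cholesterol is built from acetyl-CoA through the mevalonate arm, squalene, lanosterol and a series of sterol intermediates. The genes of this route are switched on together by the sterol regulatory element-binding proteins (SREBPs), which SCAP escorts out of the endoplasmic reticulum when sterols are scarce and which the INSIG proteins hold back when sterols are plentiful. Excess sterol is pumped out of the cell by ABC transporters that the liver X receptors (LXRs) induce, and many cancer cells depend on the synthetic route for membranes and for the isoprenoid lipids that branch from it.

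A set of 27 genes was examined, named by symbol from textbook knowledge of this pathway. The symbols were matched through the GENCODE annotation to the Ensembl identifiers of a count table of 64252 genes. The pathway was chosen with earlier results of these data known, so the set as a whole was not tested. The set held 18 enzymes of cholesterol synthesis (7 of the mevalonate arm, 3 of the squalene and lanosterol steps and 8 from lanosterol to cholesterol), 5 genes of SREBP control and 4 of sterol transport. RNA-seq had been carried out on SK-N-BE(2), a human neuroblastoma cell line, in 2 groups of 2 libraries. Control cells carried a scramble shRNA (sh-Scb) and the others an shRNA against SAPCD2 (sh-SAPCD2). By the study's methods the hairpins were delivered by lentivirus and stable cells were selected with puromycin, so all 4 libraries share that treatment. The labels do not say which of the 2 SAPCD2 hairpins of the study was used, nor whether the libraries came from separate cultures, so the p-values measure only the spread between these libraries.

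Each library held 25347900 to 31850997 counts, and values are given as CPM, the counts of a gene relative to the TMM-scaled size of its library. An amount of 3 counts, the least taken as detectable, was 0.0955 to 0.119 CPM. SAPCD2 itself, the targeted gene, had 83.6 and 82.2 CPM in the sh-Scb libraries and 35.4 and 52.5 CPM in the sh-SAPCD2 libraries, and its log2 fold change was −0.91 with an SE of 0.193 and an adjusted p of 0.0206. All adjusted p-values come from the quasi-likelihood test of edgeR, adjusted by Benjamini-Hochberg across the 18779 genes with enough counts to be tested. All 12 markers of adrenergic neuroblastoma cells were present at 1 CPM or more on average. At an adjusted p under 0.05, 6 of them fell, beside 12.5% of all tested genes. Their summed levels were 3804 and 3702 CPM in the sh-Scb group and 2824 and 3615 CPM in the sh-SAPCD2 group. Of 16 markers of other cell types 7 reached that level, and PRRX1, SOX10 and CD3E had no count in any library. Of the 9 with enough counts to be tested 3 rose, beside 12.4% of all tested genes. The summed level of the other markers was 229.3 and 232.4 CPM in the sh-Scb group and 266.2 and 286.1 CPM in the sh-SAPCD2 group. Most of this sum was PDGFRB, with 174.2 CPM in both sh-Scb libraries and 210.0 and 231.7 CPM in the sh-SAPCD2 libraries. PDGFRB was not called (adjusted p = 0.054), so the sum does not show a general rise of these markers. The part of either marker list in the results was not tested. In bulk RNA a smaller number of cells of 1 kind and less RNA per cell cannot be told apart.

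All 27 genes passed the filter on low counts. At an adjusted p under 0.05, the 2 sterol efflux pumps ABCA1 and ABCG1 rose, and ACAT2, FDPS and SREBF2 fell. The other 22 genes were not called. Over all tested genes 12.4% were called higher and 12.5% lower, so the share of called genes in the set, 5 of 27, was not above the background of 24.8%. With the further requirement of an absolute log2 fold change over 1, the threshold of the study, ABCA1 and ABCG1 were higher DEGs (background 4.69%) and ACAT2 a lower DEG (background 5.15%), against 9.84% in either direction. Between groups the values did not overlap in 12 genes that were higher (background 33.5%) and 6 that were lower (background 33.4%), where 67% of all tested genes were separated in either direction. The median log2 fold change of the 27 genes was 0.17, with 17 above 0, beside a median of 0.02 over all tested genes, of which 9619 were above 0.

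**Figure D1:**
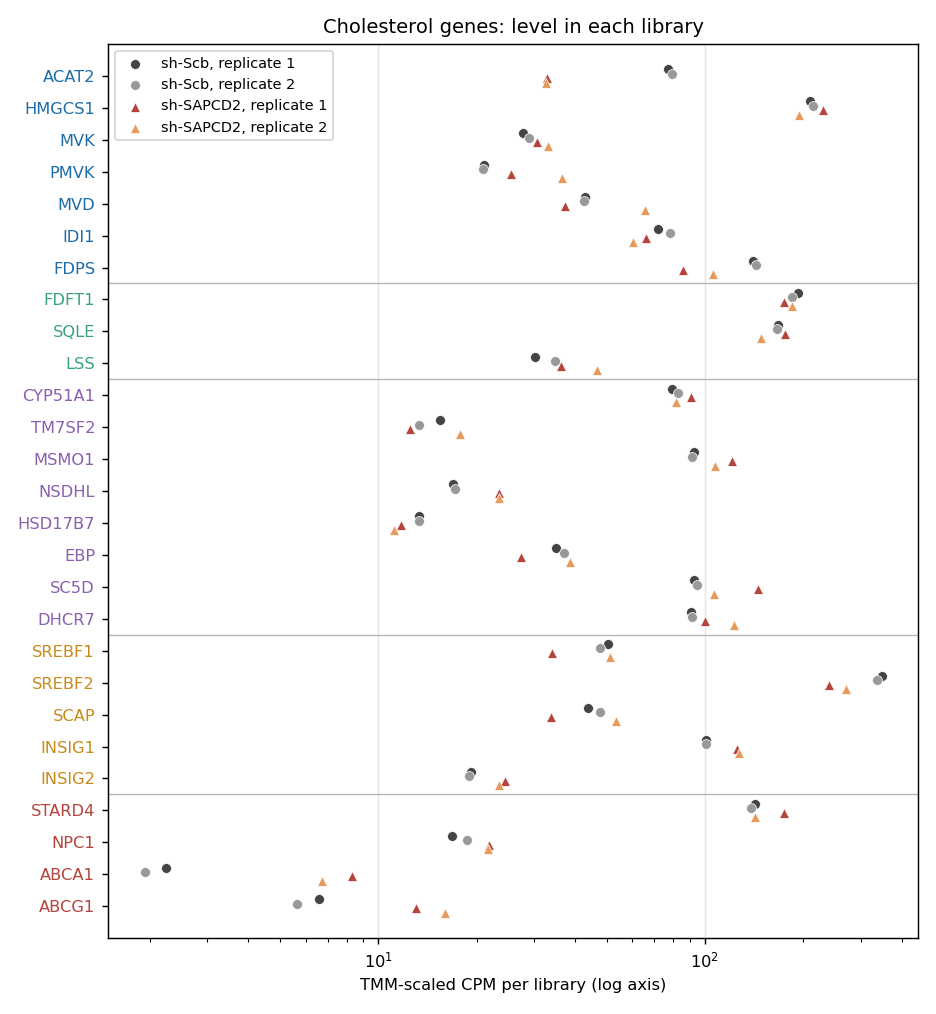
Level of each of the 27 genes in each of the 4 libraries, in TMM-scaled CPM on a log axis. Circles are sh-Scb and triangles sh-SAPCD2 libraries, and name colors and lines separate the mevalonate arm, squalene and lanosterol steps, lanosterol to cholesterol, SREBP control and sterol transport. The circles and triangles of ACAT2, ABCA1 and ABCG1 stand far apart, while those of most enzymes lie close together.

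The levels themselves showed a cell line that transcribes the whole route. Per kilobase of the canonical transcript, FDPS was the most abundant of the set in sh-Scb cells with 100.05 CPM per kb, followed by FDFT1 with 92.9, SREBF2 with 65.2, SQLE with 56.4 and ACAT2 with 51.5 CPM per kb. At the other end of this scale stood NPC1 with 3.73, ABCG1 with 2.05 and ABCA1 with 0.2 CPM per kb. In sh-SAPCD2 cells ACAT2 had 21.6 and ABCA1 0.721 CPM per kb. The 2 pumps that rose were thus the least abundant genes of the set in control cells, and ABCA1 remained so.

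In the mevalonate arm, the first and the last enzyme fell and the 5 between them were not called. ACAT2, the cytosolic thiolase that joins acetyl-CoA units, had 77.3 and 79.4 CPM in the sh-Scb libraries and 32.9 and 32.7 CPM in the sh-SAPCD2 libraries. Both sh-SAPCD2 libraries held less than any control library, and the pair of values within each group lay close together. The mean went from 78.3 ± 1.53 to 32.8 ± 0.151 CPM (SD, n = 2). The log2 fold change was −1.25 with an SE of 0.11 and an adjusted p of 0.00263, which left 41.9% of the control level. ACAT2 lies on the plus strand of chromosome 6 from 159762045 to 159779112 in hg38 and overlaps TCP1 on the opposite strand, a chaperonin gene with 357.7 to 373.0 CPM in all libraries and a log2 fold change of 0.04 (adjusted p = 0.754). The strandedness of the counting is not given in the sources used here, so reads from the shared stretch cannot be assigned to either gene.

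FDPS makes farnesyl diphosphate, the branch point toward sterols, ubiquinone, dolichol and protein prenylation. It had 140.6 and 143.0 CPM in the sh-Scb libraries and 85.5 and 106.1 CPM in the sh-SAPCD2 libraries. The groups did not overlap, and the second sh-SAPCD2 library lay nearer to the controls. The mean went from 141.8 ± 1.7 to 95.8 ± 14.5 CPM (SD, n = 2). The log2 fold change was −0.56 with an SE of 0.13 and an adjusted p of 0.0267. Without the first sh-Scb library the adjusted p was 0.171 and without the second 0.196. With no filter on low counts it was 0.0793. FDPS lies on chromosome 1 from 155308748 to 155320666 and overlaps RUSC1-AS1 on the opposite strand. Its 8 annotated pseudogenes together held 0.27% as many counts as the gene.

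HMGCS1, which condenses acetoacetyl-CoA and acetyl-CoA and is a classical SREBP target, had 209.5 and 214.2 CPM in the sh-Scb libraries and 230.7 and 193.6 CPM in the sh-SAPCD2 libraries. The sh-SAPCD2 values lay on either side of the controls, and the 95% interval of the log2 fold change ran from −0.28 to 0.29. The kinases MVK and PMVK, which phosphorylate mevalonate in turn, had log2 fold changes of 0.17 (adjusted p = 0.372) and 0.56 (adjusted p = 0.0836). MVK overlaps MMAB on the opposite strand, which fell (log2 fold change −0.70, adjusted p = 0.0286). MMAB had 43.3 and 49.6 CPM in the controls and 24.9 and 32.1 CPM in the sh-SAPCD2 libraries. Reads from the stretch that MVK and MMAB share cannot be assigned to either gene. PMVK had 21.1 and 20.9 CPM in the controls and 25.5 and 36.6 CPM in the sh-SAPCD2 libraries, which were both above the controls but far from each other. MVD, the decarboxylase that follows, had 42.9 and 42.7 CPM in the controls and 37.3 and 65.3 CPM in the sh-SAPCD2 libraries, 1 below and 1 above them. IDI1, the isomerase of isopentenyl diphosphate, had a log2 fold change of −0.25 with an interval from −0.53 to 0.03 (adjusted p = 0.164).

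None of the 3 enzymes that lead through squalene to lanosterol was called. FDFT1, the squalene synthase, had 193.3 and 185.0 CPM in the sh-Scb libraries and 175.2 and 184.7 CPM in the sh-SAPCD2 libraries. SQLE, the squalene epoxidase and a rate-limiting step, had 167.3 and 166.8 CPM in the controls and 175.9 and 148.9 CPM in the sh-SAPCD2 libraries. The interval of the log2 fold change ran from −0.31 to 0.16 for FDFT1, whose groups were barely separated, and from −0.32 to 0.24 for SQLE, whose groups overlapped. LSS, which closes the ring to form lanosterol, had a log2 fold change of 0.36 with an interval from −0.05 to 0.77 (adjusted p = 0.167). Its values were 30.2 and 34.7 CPM in the controls and 36.3 and 46.9 CPM in the sh-SAPCD2 libraries.

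Of the 8 enzymes from lanosterol to cholesterol, none was called, and 6 had a log2 fold change above 0. NSDHL, a sterol dehydrogenase of the C4 demethylation complex, came closest to the threshold with 16.9 and 17.2 CPM in the sh-Scb libraries and 23.3 and 23.4 CPM in the sh-SAPCD2 libraries. Its libraries agreed within each group, and the log2 fold change was 0.45 (adjusted p = 0.0515). MSMO1, the methyl sterol oxidase of the same complex, had 92.4 and 91.4 CPM in the controls and 121.3 and 107.7 CPM in the sh-SAPCD2 libraries (log2 fold change 0.32, adjusted p = 0.0815). HSD17B7, the ketoreductase of that complex, had a log2 fold change of −0.22 (adjusted p = 0.322), and its 2 pseudogenes held 14.0% as many counts as the gene, so reads may have been split among them.

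SC5D, the desaturase that acts late in the route, had 92.3 and 94.6 CPM in the sh-Scb libraries and 145.6 and 106.8 CPM in the sh-SAPCD2 libraries. Both were above the controls, the first by far more than the second, and the log2 fold change was 0.43 (adjusted p = 0.0989). DHCR7, which catalyzes a last reduction to cholesterol, showed the opposite order of the sh-SAPCD2 libraries, with 99.9 and 122.4 CPM against 90.7 and 91.3 CPM in the controls (log2 fold change 0.29, adjusted p = 0.15). The demethylase CYP51A1, the sterol reductase TM7SF2 and the isomerase EBP had overlapping groups and log2 fold changes of 0.09, 0.08 and −0.13. CYP51A1 overlaps AKAP9 on the opposite strand, and TM7SF2 overlaps the more abundant VPS51 on the same strand.

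**Figure D2:**
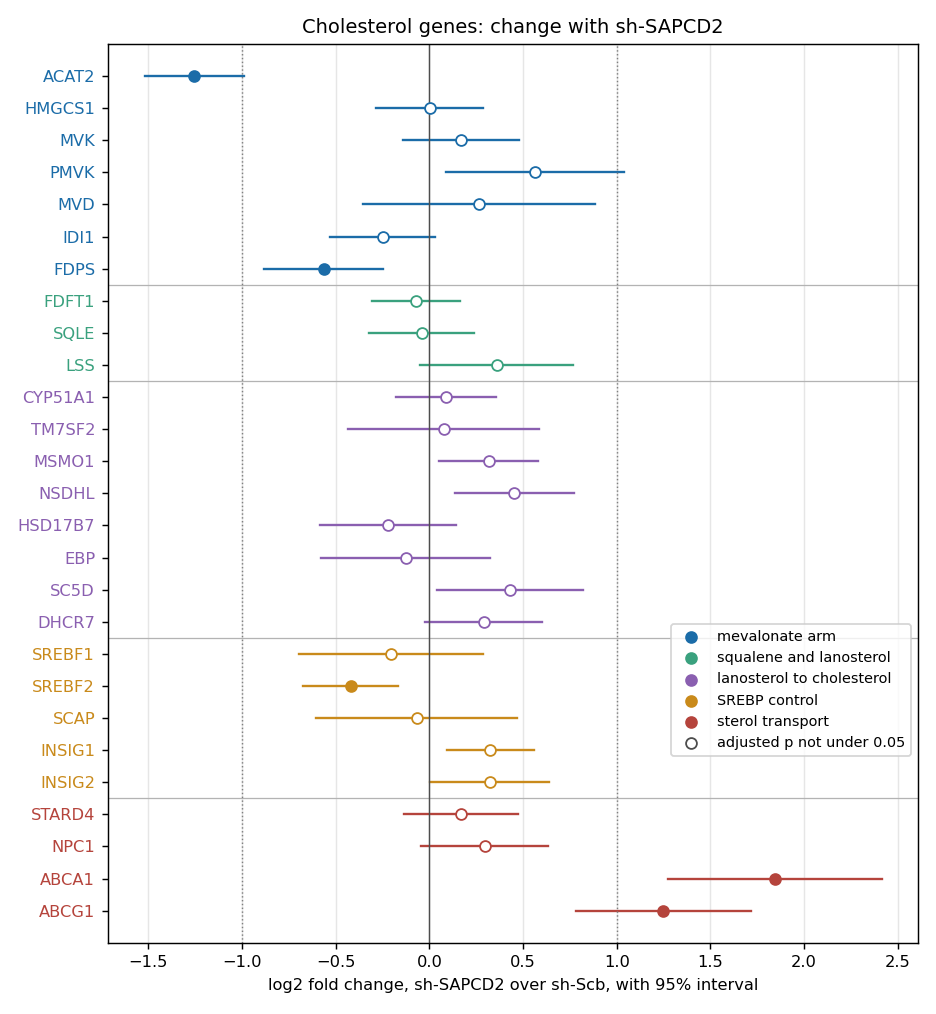
Log2 fold change of each gene, sh-SAPCD2 over sh-Scb, with its 95% interval from edgeR. Filled circles have an adjusted p under 0.05, open circles do not, colors mark the role of the gene, and dotted lines mark a log2 fold change of −1 and 1. ACAT2 stands alone on the left at −1.25, ABCA1 and ABCG1 stand alone on the right at 1.84 and 1.25, and the other genes lie between −0.56 and 0.56.

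Among the genes of SREBP control, SREBF2 fell and the others were not called. SREBF2 encodes SREBP-2, the isoform that mainly drives cholesterol synthesis, and had 347.5 and 335.8 CPM in the sh-Scb libraries and 239.9 and 270.5 CPM in the sh-SAPCD2 libraries. The groups did not overlap, with means of 341.6 ± 8.31 and 255.2 ± 21.6 CPM (SD, n = 2). The log2 fold change was −0.42 with an SE of 0.104 and an adjusted p of 0.0324, or 74.7% of the control level. Without the first sh-Scb library the adjusted p was 0.391, without the second 0.317, and with no filter on low counts 0.0773. SREBF2 lies on the plus strand of chromosome 22 from 41833105 to 41907306 and hosts the microRNA gene MIR33A.

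The promoters of the set were searched for SREBP sites, to show which genes carry the sequence that the factor is known to bind. RefSeq windows of GRCh38.p14, from 250 bases before to 50 after the start, were found for 23 of the 27 genes, and not for ACAT2, FDFT1, SQLE and ABCG1. The strict sterol regulatory element (SRE) TCACNCCAC, on either strand, was present in 1 of the 23 windows (4.35%) and in 1.11% of 10996 windows of tested protein-coding genes. The 1 gene was SREBF2 itself, on chromosome 22 at chr22:41832962-41832991, plus strand, with the element in capitals beginning at base −133 relative to the start.
SREBF2: tgacgcgccaTCACCCCACgcaccgcttcg
The E-box TCACGTGA, which SREBPs also bind, was found in INSIG1 only of this set (4.35%, beside 1.91% of all windows). The CCAAT box, bound by the SREBP partner NF-Y, was found in 15 of the 23 windows (65.2%, beside 36.5%), and the GC box GGGCGG, bound by Sp1, in 22 (95.7%, beside 69.5%), again on either strand. These matches describe the letters of the windows only.

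SREBF1, which encodes the SREBP-1 isoforms that favor fatty acid genes, had 50.5 and 47.8 CPM in the sh-Scb libraries and 34.01 and 51.2 CPM in the sh-SAPCD2 libraries (log2 fold change −0.20, adjusted p = 0.496). SCAP, the escort protein, had 43.7 and 47.7 CPM in the controls and 33.7 and 53.4 CPM in the sh-SAPCD2 libraries (log2 fold change −0.07, adjusted p = 0.847). In both genes the first sh-SAPCD2 library lay below the controls and the second above them. INSIG1, the sterol-induced retention protein and itself an SREBP target, had 100.6 and 100.7 CPM in the controls and 125.1 and 127.1 CPM in the sh-SAPCD2 libraries. The libraries of a group were nearly equal, and the log2 fold change of 0.33 (SE 0.096) had an adjusted p of 0.0545. Its relative INSIG2 had 19.3 and 19.0 CPM in the controls and 24.5 and 23.4 CPM in the sh-SAPCD2 libraries (log2 fold change 0.32, adjusted p = 0.123).

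In sterol transport both efflux pumps rose. ABCA1, which loads cholesterol and phospholipid onto apolipoprotein A-I, had 2.24 and 1.93 CPM in the sh-Scb libraries and 8.3 and 6.72 CPM in the sh-SAPCD2 libraries. Both sh-SAPCD2 libraries were far above the controls, with means of 2.09 ± 0.225 and 7.51 ± 1.12 CPM (SD, n = 2), a ratio of 3.6. The log2 fold change was 1.84 with an SE of 0.235, an interval from 1.27 to 2.41 and an adjusted p of 0.00542. ABCG1, which passes sterol to high-density lipoprotein, had 6.59 and 5.63 CPM in the controls and 13.0 and 16.02 CPM in the sh-SAPCD2 libraries. The groups were separated, with means of 6.11 ± 0.675 and 14.5 ± 2.11 CPM (SD, n = 2). The log2 fold change was 1.25 with an SE of 0.191, an interval from 0.78 to 1.72 and an adjusted p of 0.00827, or 2.38 times the control mean. In hg38 the ABCA1 gene spans 104781006 to 104928155 of chromosome 9 (minus strand), and ABCG1 spans 42199689 to 42297244 of chromosome 21 (plus strand). The calls of ABCA1, ABCG1 and ACAT2 held under every alternative, including the omission of any 1 library.

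ABCA1 is the textbook LXR target, and LXR dimers bind 2 copies of AGGTCA with 4 bases between them, a DR4 element. With at most 1 change allowed in each copy, on either strand, such a pair was found in 1 of the 23 windows, that of ABCA1 (4.35%), and in 1.02% of the 10996 windows. This search was not among those planned, so the match is a description of the sequence only. The stretch at chr9:104928202-104928231, read along the minus strand of the gene, is shown because it carries this match, with the DR4 match in capitals. The match reads on the strand opposite to the gene and begins at base −69 relative to the start.
ABCA1 promoter: caggcttTGACCGATAGTAACCTctgcgct

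The 2 SREBP genes host the miR-33 family, whose members are known to repress ABCA1. The mature sequences from RefSeq (GRCh38.p14) are shown with the seed, bases 2 to 8, in capitals, and the 2 share it.
hsa-miR-33a-5p: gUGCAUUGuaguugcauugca
hsa-miR-33b-5p: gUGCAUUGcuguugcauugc
The seed match CAATGCA, a search added after the values were seen, occurred in the 3′ untranslated regions of LSS, SCAP and NPC1, once each, and 4 times in that of ABCA1. This was 4 of 27 genes (14.8%), beside 9.26% of 13582 tested protein-coding genes. The closest 3 of the matches in ABCA1 lie within 30 bases, from base 131 to base 160 of the region, and 2 of these overlap. They are shown in capitals.
ABCA1 3′ untranslated region: tattCAATGCAATGCAattCAATGCAatga
The microRNAs were not measured in these libraries. Of the genes with a match, ABCA1 rose, while LSS (0.36), SCAP (−0.07) and NPC1 (0.29) were not called at the log2 fold changes given.

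STARD4 and NPC1 were not called. STARD4, a soluble sterol carrier, had 142.3 and 138.9 CPM in the sh-Scb libraries and 174.1 and 142.2 CPM in the sh-SAPCD2 libraries (log2 fold change 0.17, adjusted p = 0.362). It overlaps STARD4-AS1 on the opposite strand, which fell (log2 fold change −0.65, adjusted p = 0.0215). NPC1, which moves cholesterol out of lysosomes, had 16.8 and 18.7 CPM in the controls and 21.8 and 21.7 CPM in the sh-SAPCD2 libraries (log2 fold change 0.29, adjusted p = 0.171).

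In 23 of the 27 genes the SD within the sh-SAPCD2 pair exceeded that within the sh-Scb pair, as it did in 13224 of all tested genes. The difference between the 2 sh-SAPCD2 libraries moved with GC content. Across 14690 genes with at least 1 CPM on average, the log2 difference of the second minus the first had a Pearson correlation of 0.598 with the GC content of the transcript (Spearman 0.662), and across the 27 genes the Pearson correlation was 0.892 (Spearman 0.891). For the sh-Scb pair the Pearson correlations were −0.033 and −0.097. The points share the same pair of libraries and are not independent. MVD, with the highest GC content of the set at 65.5%, was higher in the second sh-SAPCD2 library by 0.80 on the log2 scale, while SC5D at 36.9% was lower there by a log2 difference of −0.45. SAPCD2, outside the set, had a GC content of 66.5% and was also higher in the second sh-SAPCD2 library (52.5 against 35.4 CPM). How much of that difference goes with GC content was not tested.

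An alternative scaling removed the trend of each library with GC content and transcript length by loess. Under it 11 genes of the set were called higher and 4 lower, beside 2 and 3 without it. Over all 18779 tested genes 3987 were called higher and 3478 lower, beside 2326 and 2339 without it. The calls thus rose over the whole table as well. The same 5 genes were called, in the same direction, and PMVK, CYP51A1, MSMO1, NSDHL, SC5D, DHCR7, INSIG1, INSIG2 and STARD4 were now higher and SREBF1 lower. Of the 8 enzymes from lanosterol to cholesterol 5 were thus higher, with log2 fold changes from 0.18 in DHCR7 to 0.52 in SC5D (adjusted p = 0.000979). With the replicate block in the same corrected fit DHCR7 was not called (adjusted p = 0.0772) and SCAP was called lower (adjusted p = 0.0408). In the corrected fit without the block, INSIG1 had 0.44 (adjusted p = 0.0023) and SREBF1 −0.48 (adjusted p = 0.00575). In that same fit without the block, SREBF2 had −0.54 (adjusted p = 0.0005) and ABCA1 1.93 (adjusted p = 0.000589). HMGCS1, SQLE and FDFT1 were not called under either scaling.

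Omitting 1 of the sh-SAPCD2 libraries also changed the counts. Without the first, 10 genes of the set were called higher and 6 lower, beside 4396 and 4014 of 19848 tested genes. Without the second, they were 9 and 6, beside 3532 and 3496 of 19751 tested genes, so the calls rose over the whole table as well. In these fits the remaining sh-SAPCD2 library is assumed to vary like the controls. Without the first sh-SAPCD2 library the log2 fold change of SREBF1 was 0.054 (adjusted p = 0.59) and without the second −0.53 (adjusted p = 0.00777). HMGCS1 was called in both fits and in opposite directions, at −0.14 without the first (adjusted p = 0.0356) and 0.12 without the second (adjusted p = 0.0469). Without either sh-Scb library, 2 genes of the set were higher and 1 was lower, beside 1176 to 1201 higher and 1146 to 1152 lower genes in all.

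**Figure D3:**
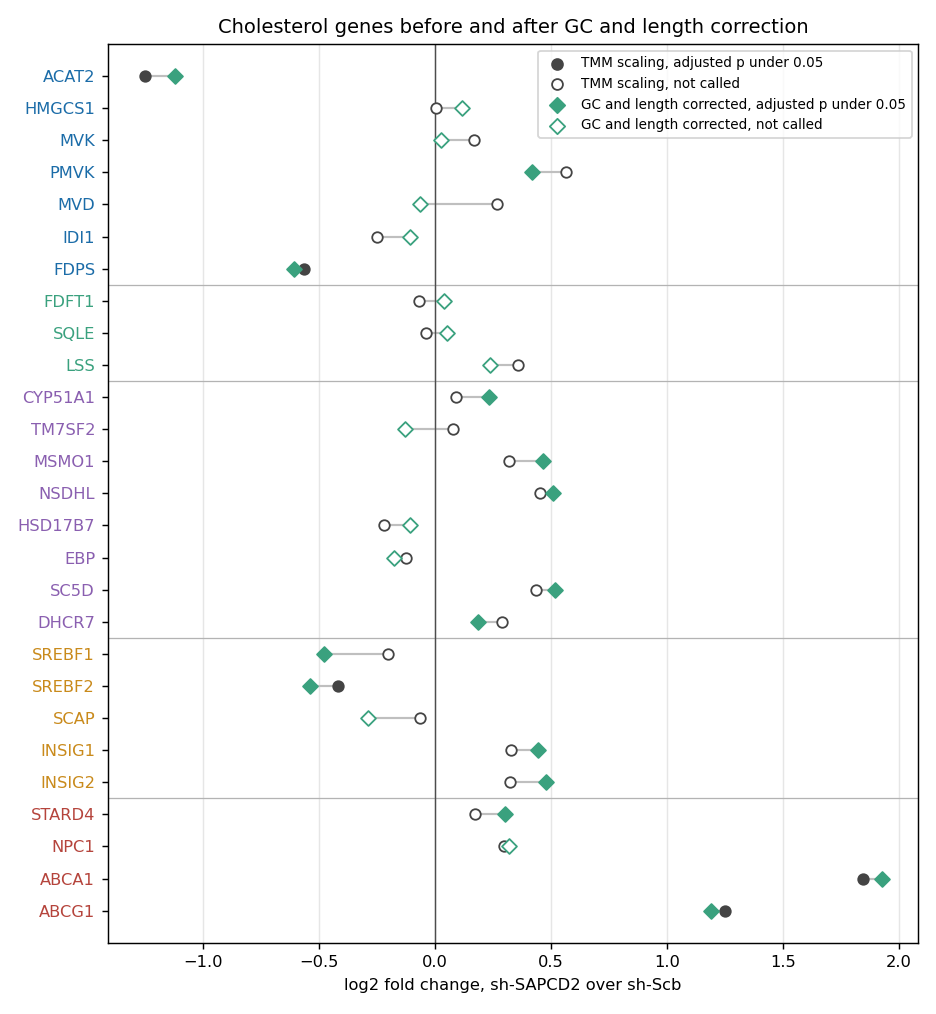
Log2 fold change of each gene with TMM scaling (circles) and after the loess removal of GC content and transcript length trends (diamonds), joined by a line. Filled symbols have an adjusted p under 0.05. Filled diamonds outnumber filled circles among the enzymes from lanosterol to cholesterol and in SREBP control, and ACAT2, ABCA1 and ABCG1 keep their places.

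The wider pathway was followed in 72 further genes in 6 lists, and 68 had enough counts for the test. They included 12 called higher and 12 called lower, beside 12.4% and 12.5% of all tested genes, and their median log2 fold change was 0.01. After the GC content and length correction 20 were called higher and 18 lower, beside 3987 and 3478 of all 18779 tested genes, where calls rose too. Called genes numbered 4 of 12 in fatty acid synthesis, 2 of 12 in the isoprenoid branches and 2 of 8 in further sterol synthesis, and these were lower. They numbered 8 of 18 in sterol uptake and transport, 7 of them higher, and 2 of 7 in the LXR list, both higher. Of the 11 genes of SREBP cleavage and turnover, 3 were called higher and 3 lower. Over all tested genes 24.8% were called, and no list was tested against the others.

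In sterol uptake and transport, GRAMD1A and GRAMD1B rose. They encode Aster proteins, which carry cholesterol from the plasma membrane to the endoplasmic reticulum. GRAMD1B had 21.5 and 18.1 CPM in the sh-Scb libraries and 59.5 and 54.9 CPM in the sh-SAPCD2 libraries (log2 fold change 1.53, adjusted p = 0.00303). GRAMD1A had 52.3 and 55.3 CPM in the controls and 126.6 and 159.0 CPM in the sh-SAPCD2 libraries (log2 fold change 1.41, adjusted p = 0.00322). In both genes the groups lay far apart. LIPA, the lysosomal acid lipase that frees cholesterol from its esters, had 82.6 and 88.3 CPM in the controls and 174.2 and 161.9 CPM in the sh-SAPCD2 libraries (log2 fold change 0.98, adjusted p = 0.00365), and it overlaps IFIT genes on the opposite strand. The endocytic receptor LRP1 and the oxysterol-binding OSBPL2 rose as well, with log2 fold changes of 0.93 (adjusted p = 0.00415) and 0.82 (adjusted p = 0.0072). The 1 lower gene, named after its value was seen, was the third Aster gene GRAMD1C, with 1.41 and 1.27 CPM in the controls and 0.158 and 0.191 CPM in the sh-SAPCD2 libraries (log2 fold change −2.90, adjusted p = 0.00836).

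In the LXR list NR1H2, which encodes LXR beta, had 10.4 and 9.96 CPM in the sh-Scb libraries and 14.5 and 23.6 CPM in the sh-SAPCD2 libraries (log2 fold change 0.90, adjusted p = 0.0451). MYLIP, which marks lipoprotein receptors for degradation, had 8.25 and 8.29 CPM in the controls and 13.6 and 14.6 CPM in the sh-SAPCD2 libraries (log2 fold change 0.77, adjusted p = 0.0182). NR1H3, which encodes LXR alpha, was not called (log2 fold change −0.44, adjusted p = 0.158). CYP7B1, with few counts, was not called either (log2 fold change −1.86, adjusted p = 0.116). Of the 7 tested genes of this list, 4 had a log2 fold change above 0 and 3 below 0. The part of LXR activity in the results was not tested.

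In fatty acid synthesis, SCD, the stearoyl-CoA desaturase, was the most abundant gene of its list in CPM and fell from 1976.2 and 1920.3 CPM to 1051.2 and 990.3 CPM (log2 fold change −0.93, adjusted p = 0.00316). The elongase ELOVL5 and the desaturases FADS1 and FADS2 fell too, with log2 fold changes of −0.81 (adjusted p = 0.00554), −0.42 (adjusted p = 0.0227) and −0.46 (adjusted p = 0.0245). FADS1 and FADS2 overlap each other on opposite strands. FASN, the fatty acid synthase, was not called, with 549.3 and 533.4 CPM in the controls and 606.9 and 807.8 CPM in the sh-SAPCD2 libraries (log2 fold change 0.39, adjusted p = 0.106). The called genes of this list were thus 3 desaturases and 1 elongase, all lower.

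Among the 11 genes of SREBP cleavage and turnover 3 rose and 3 fell, beside 12.4% and 12.5% of all tested genes. ERLIN1, a lipid raft protein of the endoplasmic reticulum that restrains SREBP, had 84.6 and 82.2 CPM in the sh-Scb libraries and 35.1 and 27.5 CPM in the sh-SAPCD2 libraries (log2 fold change −1.41, adjusted p = 0.00345). Its partner ERLIN2 rose, with a log2 fold change of 0.45 (adjusted p = 0.0271). MBTPS1, the site-1 protease that makes the first cut in SREBP, fell from 168.2 and 167.5 CPM to 112.7 and 113.2 CPM (log2 fold change −0.57, adjusted p = 0.0102), and PAQR3, which tethers SCAP and SREBP to the Golgi, fell by 0.72 on the log2 scale (adjusted p = 0.00906). FBXW7, the ubiquitin ligase subunit that marks nuclear SREBP for degradation, rose by a log2 fold change of 0.79 (adjusted p = 0.00997). The third higher gene, outside the rule for named genes, was RNF139, a ubiquitin ligase of the endoplasmic reticulum membrane (log2 fold change 0.43, adjusted p = 0.0382).

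Of the remaining genes of sterol synthesis, ERG28, a scaffold of the C4 demethylation complex, fell from 34.2 and 32.4 CPM to 13.6 and 11.2 CPM (log2 fold change −1.43, adjusted p = 0.00378). Its complex partners NSDHL and MSMO1, as given, had values above the controls and HSD17B7 had values below them. None of these partners was called with TMM scaling in the main fit. After the GC content and length correction NSDHL (adjusted p = 0.00749) and MSMO1 (adjusted p = 0.00122) were called higher, and HSD17B7 was not called. FAXDC2 fell by 0.85 on the log2 scale (adjusted p = 0.0112). In the isoprenoid branches, FNTB, the farnesyltransferase beta subunit, and PDSS1, which builds the ubiquinone side chain, fell by 0.73 (adjusted p = 0.0153) and 0.68 (adjusted p = 0.0281) on the log2 scale. FNTB shares its strand with the readthrough gene CHURC1-FNTB, so reads may have been split between them.

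**Figure D4:**
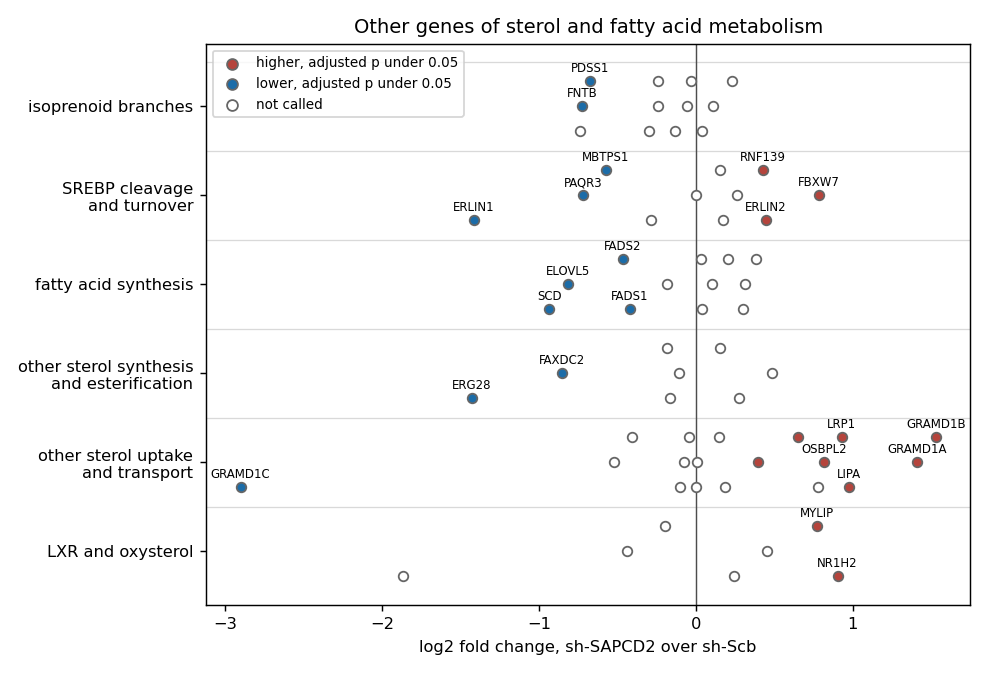
Log2 fold change, sh-SAPCD2 over sh-Scb, of the 68 tested genes in 6 lists of the wider pathway. Red and blue points are higher and lower at an adjusted p under 0.05, open points are not called, and the named points are called genes given in the text. The list of sterol uptake and transport holds 7 red points and 1 blue, and that of fatty acid synthesis 4 blue and no red.

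The hairpins themselves were compared with the 3′ untranslated regions of the set, since an shRNA can act on other transcripts through its seed. The targets of the 2 SAPCD2 hairpins, as the study lists them, are shown.
sh-SAPCD2 #1: acctctggattccaccttcat
sh-SAPCD2 #2: gctgcagggtttggagatgat
The match to the guide seed of the first, ACCTTCA, was present in 1 of the 27 genes, ABCA1, beside 12.5% of 13582 genes, and ABCA1 rose. The match to that of the second, GAGATGA, was present in SQLE, SC5D and INSIG1, beside 14.8% of genes. A shifted match to the guide of the first, TCCACCT, chosen from earlier results of these data, was present in SREBF2 once and in SC5D 3 times, beside 17.9% of genes, and the 2 genes had log2 fold changes of −0.42 and 0.43. ACAT2 and FDPS carried none of these matches. The part of such matches in the results was not tested.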

How the data were processed

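The authors aligned paired-end reads to hg38 with HISAT2 2.2.0 (per the labels) and estimated abundances with StringTie, and deposited a table of whole-number counts per Ensembl gene, with no scaling for library size. How StringTie output became counts, which Ensembl release was used, and how strand and multiply matching reads were treated are not given in the sources used here. Depth was 25347900 to 31850997 counts per library, and the floor of 3 counts covers counting error only.

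Groups came from the sample titles. Counts were scaled by TMM. Genes kept by filterByExpr (count at least 10, total at least 15) were tested by the two-sided quasi-likelihood F-test in edgeR 4.0.16 under R 4.3.3. The biological coefficient of variation was 15.4%. Of 18779 tested genes, 17467 matched GENCODE 44, from which symbols, positions in hg38, transcript lengths, GC contents and 3′ untranslated regions of canonical transcripts were taken. Promoters and microRNAs came from RefSeq tables. The 95% intervals are those of the log2 fold change in this fit.

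Tried as alternatives were the replicate block, loess removal of GC content and length trends (span 0.3), the block with that removal, omission of each library, DESeq2 1.42.0 as a whole or for size factors alone, unscaled library totals, protein-coding genes alone, genes averaging 1 CPM or more, and all genes unfiltered. The genes and lists were chosen with earlier results of these data known, so no test was made of a list. Named were all 27 genes, SAPCD2 and, of each further list, at most the 5 genes with the smallest p, besides those said to be named after their values were seen. Further genes of the pathway are not analysed here.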

Additional observations from a re-analysis of the deposited data

How the results depend on the processing

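The calls of ABCA1, ABCG1 and ACAT2 and their status as DEGs were kept in all 13 alternatives, and the median log2 fold change of the 27 genes stayed between 0.12 and 0.22. DESeq2 called 4 genes of the set higher. NSDHL was called higher among genes averaging 1 CPM or more (adjusted p = 0.0473) and with protein-coding genes alone (adjusted p = 0.0476). With no filter on low counts, 1 gene of the set was lower, 1081 genes were higher, 1180 lower and 553 called DEGs higher over the whole table, and SAPCD2 at −0.91 had an adjusted p of 0.0749. The GC content and length correction gave 11 higher genes of the set, 20 higher genes of the wider pathway and 3987 higher genes in all, and turned MVD to −0.066, FDFT1 to 0.039, SQLE to 0.050 and TM7SF2 to −0.13. With the replicate block added to it, the counts were 10 higher and 5 lower genes of the set, 19 higher genes of the wider pathway and 3926 higher genes in all, and the values of MVD, FDFT1, SQLE and TM7SF2 were −0.071, 0.039, 0.048 and −0.13. The cause of these shifts was not tested. HMGCS1, at 0.0017, turned to −0.016 with library totals, −0.0076 with a mean of at least 1 CPM, −0.027 with protein-coding genes only and −0.0036 with the replicate block.

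The replicate block alone called 3 genes of the set higher and 3 lower, with PMVK added (adjusted p = 0.0361), and 2860 higher and 2701 lower genes in all. The labels do not say that equal numbers mark a shared preparation, and the correlation across genes between the deviations of libraries with the same number was −0.0188. When 1 library at a time was omitted, the counts ranged from 2 to 10 higher and 1 to 6 lower genes of the set, 4 to 21 higher and 6 to 18 lower genes of the wider pathway, 1176 to 4396 higher and 1146 to 4014 lower genes in all, and 705 to 1323 DEGs higher. Log2 fold changes ranged from −0.14 to 0.12 for HMGCS1, −0.39 to 0.090 for EBP, −0.53 to 0.054 for SREBF1, −0.44 to 0.22 for SCAP, −0.20 to 0.30 for TM7SF2, −0.20 to 0.60 for MVD and −0.17 to 0.076 for SQLE. With 2 libraries per group, the 95% intervals of the enzymes that were not called still include changes of the size seen in SREBF2 for some of them, such as TM7SF2 and EBP.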
